A study of Homo sapiens with 21 samples.

Results

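NF-kB, a transcription factor that drives inflammatory genes in microglia and other immune cells, was followed here through the open chromatin around the genes of its 5 subunits (NFKB1, NFKB2, RELA, RELB and REL) and of 5 inhibitors (NFKBIA, NFKBIZ, TNFAIP3, TNIP1 and CYLD). ATAC-seq peaks, which mark DNA that a transposase can cut, were merged over 21 libraries wherever they shared at least 1 bp, and the regions whose nearest protein-coding gene span within 100 kb was one of these 10 genes were taken. They numbered 126 of 166736 regions. NFKB1 had 28, NFKB2 2, RELA 2, RELB 3, REL 9, NFKBIA 12, NFKBIZ 18, TNFAIP3 29, TNIP1 13 and CYLD 10.

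The microglia-like cells were grown from the established human embryonic line H9. There were 7 lines with 3 libraries each: TREM2-R47H and TREM2-KO, altered in a lipid-sensing receptor of microglia; SORL1-A528T and SORL1-KO, altered in an endosomal sorting receptor; the CD33 SNP and INPP5D SNP lines; and unedited WT. All edits were made with CRISPR/Cas9 and were homozygous. Per the treatment protocol the SORL1 nonsense edit was R744X, and H9, heterozygous at the INPP5D polymorphism, was converted to the A allele; the sources used here do not give the CD33 allele. Libraries titled SORL1-A528T carry a genotype label that names TREM2-KO, and were grouped by title. All lines had 28 days of microglial differentiation with IL-34 (100 ng/mL), TGF-beta1 (50 ng/mL) and M-CSF (25 ng/mL), and CD200 and CX3CL1 (100 ng/mL each) in the last 3 days. Each library came from 80000 sorted cells. The labels do not say how many clones stand for a line, or whether replicates were differentiated separately. The spread between libraries, on which all p-values here rest, may therefore be technical.

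NF-kB subunits share a Rel homology domain and bind DNA in pairs at kappaB sites. In resting cells the pairs are held in the cytoplasm by inhibitors such as the product of NFKBIA. Signals from cytokine and Toll-like receptors lead to the degradation of that inhibitor, the pairs enter the nucleus, and among the genes they switch on are several of their own subunits and inhibitors.

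That feedback is known to act through kappaB sites in promoters, so the promoter sequences were searched for the kappaB consensus of 10 letters, on both strands. The stretches that follow, 1 or 2 for each gene with a match, are shown because all lay under regions called in 21 of 21 libraries. They are from RefSeq (GRCh38.p14), read 5′ to 3′ on the gene's strand, with the kappaB matches in capitals.
NFKB1, chr4:102501290-102501339 (+): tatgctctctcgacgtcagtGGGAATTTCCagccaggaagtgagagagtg
NFKB2, chr10:102394451-102394529 (+): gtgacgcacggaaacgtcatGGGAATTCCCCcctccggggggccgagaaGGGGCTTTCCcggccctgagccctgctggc
NFKB2, a later start, chr10:102395664-102395713 (+): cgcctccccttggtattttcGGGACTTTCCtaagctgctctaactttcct
REL, chr2:60881507-60881557 (+): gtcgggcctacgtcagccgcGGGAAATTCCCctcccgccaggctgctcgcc
NFKBIA, chr14:35404801-35404850 (-): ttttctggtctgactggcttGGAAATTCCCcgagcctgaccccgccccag
NFKBIZ, first start, chr3:101827747-101827796 (+): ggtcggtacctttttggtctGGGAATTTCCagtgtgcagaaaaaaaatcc
NFKBIZ, second start, chr3:101849264-101849304 (+): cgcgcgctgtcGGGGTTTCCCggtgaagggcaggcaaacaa
TNFAIP3, chr6:137867172-137867233 (+): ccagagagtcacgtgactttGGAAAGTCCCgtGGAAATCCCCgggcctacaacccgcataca
TNIP1, chr5:151081047-151081096 (-): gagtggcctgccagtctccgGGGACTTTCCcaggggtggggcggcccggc
CYLD, chr16:50741877-50741926 (+): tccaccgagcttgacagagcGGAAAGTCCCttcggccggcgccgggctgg

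Promoter windows ran from 250 bases before to 50 bases after each annotated start, and 17 windows were at hand for 9 of the genes (all but RELB). The kappaB consensus was found in 11 of the 17 windows (64.7%), and in 8 of the 9 genes; RELA had no match in either of its windows. Among 34961 promoter windows of all genes the share was 11.3%, and among the 11756 windows covered by a region common to all 21 libraries it was 12.9%. By gene, 2518 of 15812 protein-coding genes with a window (15.9%) had a match. The NFKB1 match began 49 bases before the annotated start, that of TNIP1 42 bases, that of REL 47 bases and that of NFKBIA 81 bases. In TNFAIP3 there were 2 matches, the first 67 bases before the start, separated from the next by a pair of letters.

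Other sequences stood differently in the same windows. The GC box (GGGCGG), a common promoter element, was in 15 of 17 windows (88.2%), against 45.0% of all windows and 68.8% of those under constant regions. GC content was 68.7% in the member windows and 57.6% in all windows, and 0 of the 16 kappaB matches overlapped a GC box. The core bound by PU.1 (GAGGAAG), a factor of macrophages and microglia, was in 6 of 17 windows (35.3%), against 13.6% of all windows and 15.1% of those under constant regions. The AP-1 sequence TGANTCA was in 0 of 17 windows, against 7.7% of all windows and 4.4% of those under constant regions. These matches are letters in a window and do not show binding.

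The libraries differed most by replicate number. Tags per library, in M (1000 times 1000), were 56.5 to 67.4 in replicate 1, 12.8 to 17.5 in replicate 2 and 32.6 to 52.9 in replicate 3, and lists held 39736 to 102891 peaks. Within each replicate number, SORL1-A528T had the fewest peaks (69732, 39736 and 78438), and its replicate 2 had a HOMER fragment length of 494 bp, against 136 to 262 bp in the other replicate 2 libraries. Gene ends, meaning regions no more than 1 kb from either end of a gene's annotated span, were called in all 21 libraries for 8 of 13 microglia and macrophage markers and for 44.4% of 19974 protein-coding genes, with SALL1 and TMEM119, defining markers of brain microglia, called in 0. Of 5 pluripotent markers, 0 were called in all libraries and 4 in none, and of 8 erythroid, megakaryocyte and mast cell markers 0 were called in all and 5 in none. Neural markers gave 0 of 5 in all libraries, though a promoter window of GAD1, one of them, was called in all 21. Mesenchymal markers gave 1 of 5, PDGFRB, with its promoter window called in 0 libraries. T cell markers gave 2 of 3, though the promoter windows of CD3D and CD3E were called in 0 libraries.

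Around the 10 genes, open chromatin was widely shared between libraries. Of the 126 regions, 31 (24.6%) were called in all 21 libraries, where 15.4% of all regions were, and 15 (11.9%) in a single library, where 25.8% of all regions were. A member region was called in a median of 14.5 libraries, and a region of the whole series in 7. Member regions all have a gene within 100 kb, which not every region of the series has. Among the regions that do, 17.1% were in all 21 libraries and 21.8% in a single library, with a median of 9 libraries. Without the shallow replicate 2 libraries, 45.2% of member regions and 29.4% of all regions were called in every remaining library. When a call had to cover at least 50% of a region, 6.3% of member regions and 5.6% of all regions were in every library. Each gene kept at least 1 region in all 21 libraries: NFKBIZ had 7, NFKB1 6, TNFAIP3 5, REL 4, TNIP1 3, CYLD 2, and NFKB2, RELA, RELB and NFKBIA 1 each.

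Calls followed position and were fewest in the shallow replicate 2 libraries. Regions over a promoter window of the gene were in all libraries in 9 of 10 cases, those inside the gene span in 7 of 42 and those outside it in 13 of 68. Of the 9 member genes with a window, 8 had one under a region of all 21 libraries, RELA being the exception, and so did 46.3% of 15812 protein-coding genes. Replicate 1 libraries called 71 to 93 member regions, replicate 2 libraries 39 to 63 and replicate 3 libraries 79 to 96. By line, TREM2-R47H held 65.3% of the possible calls, TREM2-KO 59.0%, SORL1-A528T 50.0%, SORL1-KO 62.2%, CD33 SNP 65.3%, INPP5D SNP 59.8% and WT 61.1%. The same lines held 45.7%, 46.6%, 36.3%, 43.6%, 49.1%, 42.9% and 46.2% of the possible calls over all regions, so SORL1-A528T was lowest by both measures. Over the regions with a gene within 100 kb the shares ran from 39.4% in SORL1-A528T to 53.1% in CD33 SNP.

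**Figure D1:**
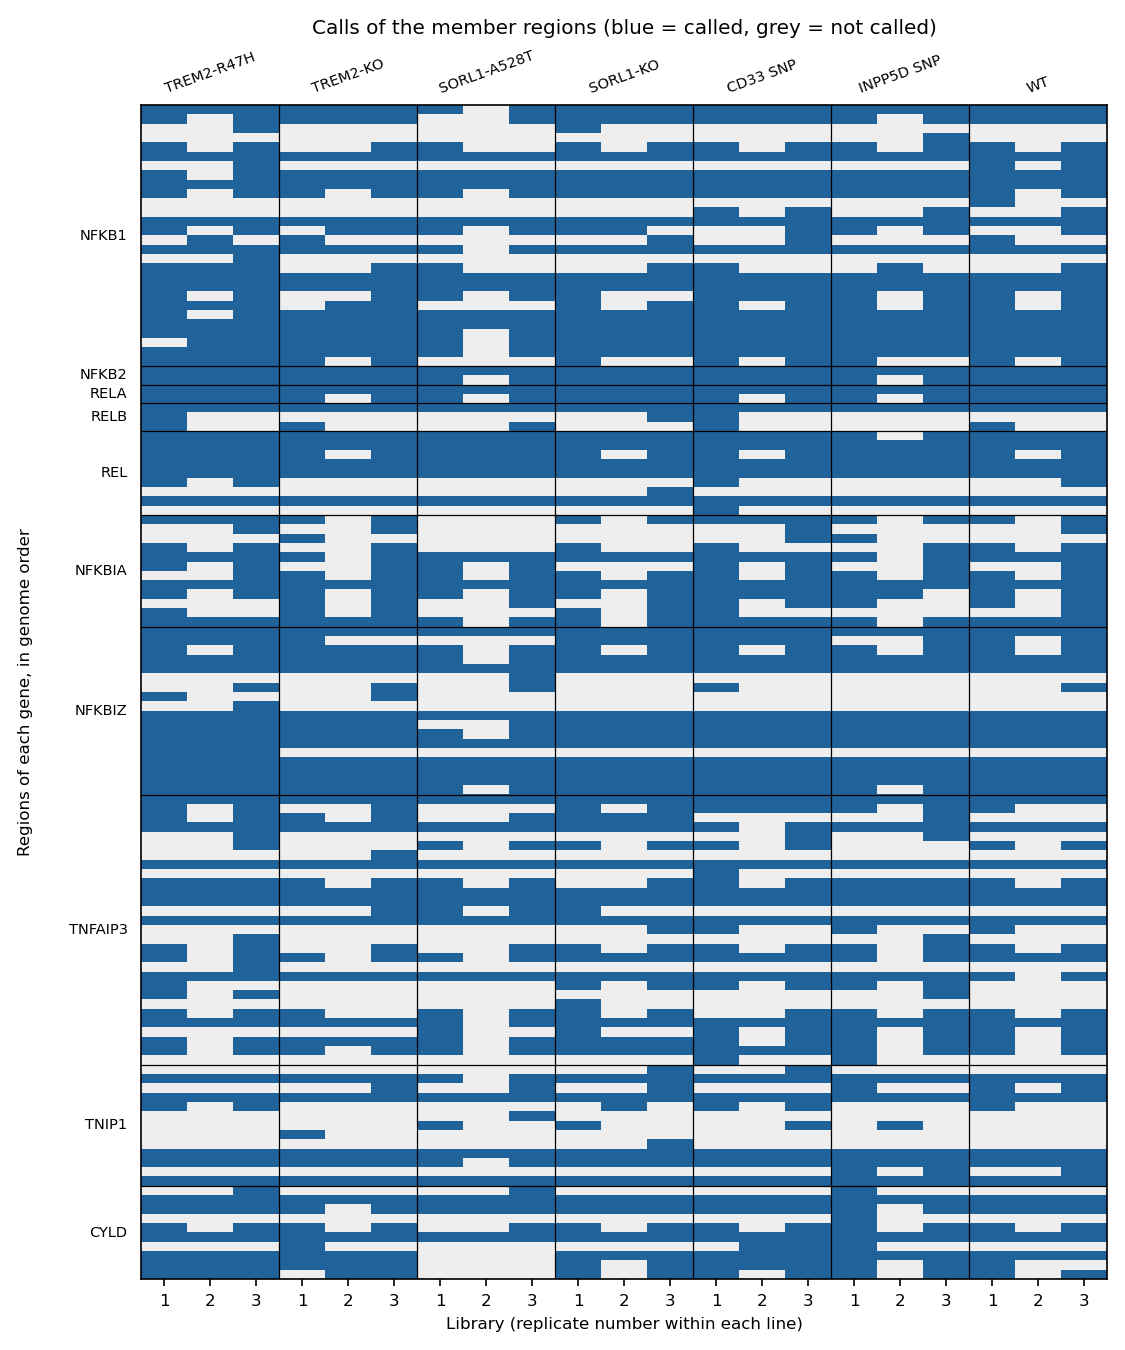
Calls of the 126 regions (rows, grouped by gene and in genome order) in 21 libraries (columns, replicates 1 to 3 of each line, WT at the right). Blue marks a called region and grey one not called; NFKB1, NFKBIZ and TNFAIP3 show unbroken rows beside rows that are empty in replicate 2.

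The score column of the lists was constant, so strength was read from the order of the peaks, in which peaks in the first 10% of a list recurred in a mean of 19.9 to 19.99 other libraries, and peaks in the last 10% in 4.16 to 13.8. Position is given as a percentile among the 25599 regions called in all 21 libraries, with 100 for the first. Recurrence is the same for all of these, so it cannot show that order among them follows strength. The 9 promoter regions in all libraries had a median percentile of 85.6 (range of regions 69.6 to 93.3), where the 7297 constant regions over any promoter window had a median of 73.1 (quartiles 52.5 and 88.2). The 7 constant member regions inside the gene spans had a median of 27.3 and the 13 outside them 37.6, and the 18302 constant regions over no promoter window had 39.6. Median widths of the constant member regions were 2241 bp over promoters, 762 bp inside the gene spans and 926 bp outside. A merged region took the place of its first peak, and whether width entered the order was not tested.

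Among the subunits, the promoter of NFKB1, which encodes a precursor processed to a DNA-binding subunit, stood highest at a median percentile of 91.8 (87.7 to 95.9 over 21 libraries; chromosome 4, 102500171 to 102502736). REL, a subunit prominent in blood cells, followed at 84.9 (64.7 to 92.5; chromosome 2, 60880404 to 60883837). NFKB2, the precursor of the alternative pathway, was at 74.5 (29.0 to 90.1; chromosome 10, 102393604 to 102396684). The ranges of REL and NFKB1 overlapped over libraries, as did those of NFKB2 and REL.

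RELB had no promoter window at hand, and is given by a gene end. That end of RELB, the partner of the NFKB2 product in the alternative pathway, was at 58.6 (7.5 to 79.3; chromosome 19, 45000947 to 45002719). RELA encodes the main activating subunit of the canonical pathway. Its promoter region (chromosome 11, 65662427 to 65664141) was called in 17 libraries: 3 of 3 in TREM2-R47H, 2 of 3 in TREM2-KO, 2 of 3 in SORL1-A528T, 3 of 3 in SORL1-KO, 2 of 3 in CD33 SNP, 2 of 3 in INPP5D SNP and 3 of 3 in WT. The 4 libraries without it were all replicate 2. A second region, at the far end of RELA (chromosome 11, 65651221 to 65653721), was called in all 21 libraries, at a median percentile of 49.4 that ranged from 0.4 in replicate 2 to 78.2.

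Among the inhibitors, CYLD, a deubiquitinase that removes signalling ubiquitin chains, had the highest promoter at 93.3 (89.8 to 95.0; chromosome 16, 50741152 to 50743020). NFKBIZ, a nuclear inhibitor-family protein that also helps activate some NF-kB targets, had 92.2 at its second start (87.3 to 95.9; chromosome 3, 101848495 to 101852413) and 69.6 at its first (37.1 to 85.1; chromosome 3, 101826048 to 101830361), a region equally near NXPE3. NFKBIA, the classical cytoplasmic inhibitor, was at 87.2 (72.8 to 94.5; chromosome 14, 35403028 to 35406087). These promoters thus stood in the upper part of the constant regions in every library, except the first NFKBIZ start in SORL1-A528T replicate 2 (37.1).

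TNIP1 binds ubiquitin chains and TNFAIP3, and its promoter was at 85.6 (70.9 to 91.4; chromosome 5, 151080022 to 151082614). TNFAIP3, a ubiquitin-editing enzyme that ends NF-kB signalling, was at 70.3 (27.0 to 87.1; chromosome 6, 137866162 to 137868565). In replicate 2 the NFKB2 promoter spanned 29.0 to 81.4 (median 52.6, against 86.5 in replicate 1 and 66.7 in replicate 3) and the TNFAIP3 promoter 27.0 to 70.3 (59.8, against 80.3 and 69.5). The gene end of RELB spanned 7.5 to 59.9 there (43.8, against 74.6 and 51.0) and the far end of RELA 0.4 to 49.7 (24.6, against 66.5 and 37.2). The first NFKBIZ start, though as low in the order as TNFAIP3, had medians of 65.5, 69.9 and 69.6 in replicates 1, 2 and 3. Over all 9 promoter regions the mean percentile was 86.0 to 88.2 in replicate 1, 72.4 to 85.0 in replicate 2 and 78.4 to 85.7 in replicate 3. Fragment length was 74 bp in every library of replicates 1 and 3, and longer in those of replicate 2. Depth and replicate number move together here, and in replicate 2 fragment length with them, and their parts cannot be told apart.

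**Figure D2:**
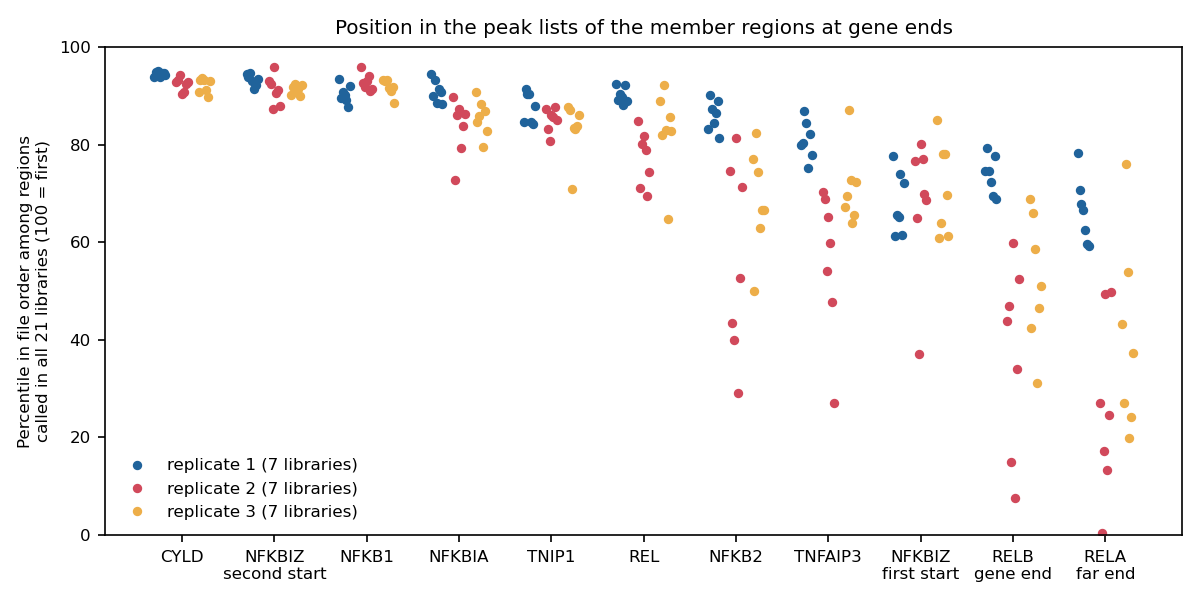
The 11 constant member regions over a promoter window or at a gene end, by percentile in file order. On the vertical axis 100 is the first of the regions called in all libraries. Each point is a library and colours give the replicate number. CYLD, NFKB1 and the second NFKBIZ start stay at or above 87.3 in all 21 libraries, while RELA, RELB and NFKB2 spread widely in replicate 2.

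Some regions away from promoter windows and gene ends stood as high as the promoters. A region 36861 bp to the right of NFKBIZ (right meaning higher coordinates; chromosome 3, 101897883 to 101899744) had a median percentile of 88.9 (79.8 to 93.2). A region 18018 bp to the left of TNFAIP3 (chromosome 6, 137846312 to 137848331) had 86.7 (74.0 to 89.5), above the TNFAIP3 promoter itself. A region inside REL (chromosome 2, 60926049 to 60927898) had 77.6 (62.6 to 84.2), and one 3729 bp to the right of TNIP1 had 72.4 (56.7 to 79.1). These 4 were chosen after their values were seen, as the highest away from promoter windows and gene ends. The lowest constant region was inside TNIP1, at 15.9 (4.8 to 39.8).

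Whether the edited lines differed in calls was asked first of whole regions, those called in 3 of 3 libraries of one line and 0 of 3 of the other. Over 8 comparisons (6 edited lines against WT, TREM2-R47H against TREM2-KO and SORL1-A528T against SORL1-KO) 4 member regions met this, with no test per region. A region 40811 bp to the right of NFKBIZ (chromosome 3, 101901833 to 101902627) was open in all 3 TREM2-R47H libraries and called in 0 of the 18 others, WT included. Regions of this kind numbered 12 in the whole series (0.0072%). Gained regions made up 0.127% of all regions for TREM2-R47H against WT and 0.345% for TREM2-R47H against TREM2-KO, and 1 of the 126 member regions in each. With all lists reduced to equal length, 0 member regions met the rule in either comparison, and this region was called in 0 libraries of any line.

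The converse was seen near CYLD. A region 40081 bp to its right (chromosome 16, 50842016 to 50843121) was called in 0 of 3 SORL1-A528T libraries and in all 18 others, including 3 of 3 in SORL1-KO and 3 of 3 in WT. Such regions numbered 42 in the series (0.0252%), and lost regions were 0.487% of all regions for SORL1-A528T against WT. The same region was lost in SORL1-A528T against SORL1-KO, where lost regions were 1.1% of all. When a call had to cover at least 50% of a region, 0 member regions were lost in SORL1-A528T against WT; this region was then called in 0 of 3 SORL1-A528T, 3 of 3 SORL1-KO and 2 of 3 WT libraries. With lists of equal length it was still called in 0 of 3 SORL1-A528T libraries and in 3 of 3 of both SORL1-KO and WT.

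The 4 regions from 38953 bp outward on the right of CYLD gave 0 of 12 possible calls in SORL1-A528T. They gave 9 of 12 in TREM2-R47H, 9 in TREM2-KO, 7 in SORL1-KO, 10 in CD33 SNP, 8 in INPP5D SNP and 6 in WT, or 49 of 72 (68.1%) in the lines other than SORL1-A528T. Nearer the gene, the region 3974 bp to the right and the CYLD promoter were called in all 21 libraries. This group of 4 was drawn after the calls were seen. SORL1-A528T also had the fewest peaks at each replicate number. With lists of equal length the 4 regions gave 0 of 12 calls in SORL1-A528T and 18 in the other lines together, 3 of them in WT, and nearly all of these were calls of the region 40081 bp to the right.

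**Figure D3:**
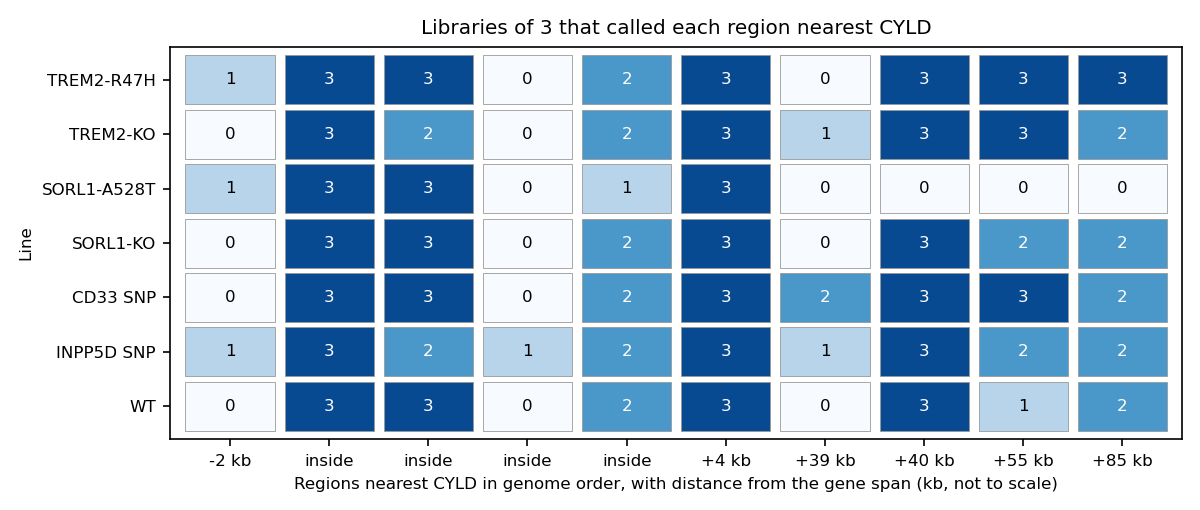
Number of the 3 libraries of each line (rows, WT lowest) that called each of the 10 regions nearest CYLD (columns, in genome order, with distance from the gene span in kb, not to scale). The SORL1-A528T row is 0 for the 4 columns farthest to the right and 3 at the promoter and at the next region outside the gene.

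The gaps of SORL1-A528T were not limited to CYLD. Of the 77 member regions called in at least 10 libraries, 8 (10.4%) were called in 0 of 3 SORL1-A528T libraries, where 6.6% of all such regions in the series were. They were 3 of CYLD, 2 of NFKB1 and 1 each of NFKBIA, NFKBIZ and TNFAIP3. In every other line, WT included, 0 of the 77 were missing from all 3 libraries, where 0.106% to 1.39% of all such regions were. One of the 8, inside NFKBIZ (chromosome 3, 101831084 to 101831832), was called in 0 of 3 SORL1-A528T and 3 of 3 SORL1-KO libraries and in 2 of 3 in WT, and so was lost between the SORL1 lines. With lists of equal length it was called in 0 of 3 SORL1-A528T and 1 of 3 SORL1-KO libraries. The last whole-region difference, for SORL1-KO against WT, was a region 85143 bp to the left of TNFAIP3 (chromosome 6, 137780531 to 137781206), called in 3 of 3 SORL1-KO and 0 of 3 WT libraries, where 0.0624% of all regions were gained. It was called in 2 libraries of TREM2-R47H, 2 of TREM2-KO, 1 of SORL1-A528T, 0 of CD33 SNP and 1 of INPP5D SNP, and with lists of equal length in 0 libraries of any line.

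No other member region met the rule. The share of all regions lost was 0.303% for TREM2-R47H against WT, 0.233% for SORL1-KO against WT and 0.288% for TREM2-R47H against TREM2-KO, with 0 members in each. The share gained was 0.0114% for SORL1-A528T against WT and 0.112% for SORL1-A528T against SORL1-KO, again with 0 members. For TREM2-KO, CD33 SNP and INPP5D SNP against WT, 0 members were gained, where 0.048%, 0.0954% and 0.0276% of all regions were, and 0 were lost, where 0.0576%, 0.0414% and 0.142% of all regions were.

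For each member the region called least often, but in at least 10 libraries, was set out by line. The NFKB1 one, 3147 bp to the right of the gene, was called in 3, 2, 0, 1, 2 and 1 libraries of TREM2-R47H, TREM2-KO, SORL1-A528T, SORL1-KO, CD33 SNP and INPP5D SNP, and in 2 of WT. The TNFAIP3 one, 92032 bp to the left, was called in 2, 1, 0, 2, 3 and 2 libraries of the same lines and in 1 of WT. The NFKBIA one, 1984 bp to the left, was called in 1 TREM2-R47H library and in 2 of every other line, WT included, none of the 13 being a replicate 2 library. The CYLD one, inside the gene, was called in 1 SORL1-A528T library and in 2 of every other line, again in no replicate 2 library. A region 85297 bp to the right of CYLD tied with it at 13 libraries, called in 3, 2, 0, 2, 2 and 2 libraries of the edited lines in the same order and in 2 of WT. Those of REL, NFKB2 and TNIP1 were called in 17, 19 and 20 libraries, and that of RELA was its promoter.

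To compare lines over a whole gene, each call (1 or 0) was turned into a depth-adjusted call: the average of equally recurrent regions in that library was subtracted, and the result was averaged over the regions of a gene. Genes with at least 5 regions were tested, 8732 in all and 7 of the members (NFKB2, RELA and RELB had fewer). By limma, 0 of the 7 members were called at an adjusted p of 0.05 in any of the 8 comparisons, and 1 of 56 member tests (1.8%) had an unadjusted p under 0.05, against 5.74% over all genes. Of all genes 0.0115% were called in INPP5D SNP against WT and 0 in the other comparisons. A test over all 7 lines also called 0 members and 0 genes in all (limma F, lowest adjusted p of a member 0.886), with 0 of the 7 members and 531 genes at an unadjusted p under 0.05. A p above the threshold does not show that the lines were alike.

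TNFAIP3 had the only member value with an unadjusted p under 0.05. Its depth-adjusted call was 0.109, 0.017 and 0.070 in SORL1-KO libraries and -0.042, -0.049 and -0.099 in WT libraries, which did not overlap, a difference of 0.129 (SE 0.0600, limma adjusted p = 0.938). In INPP5D SNP it was 0.097, -0.039 and 0.106, a difference from WT of 0.118 (SE 0.0600, limma adjusted p = 1.0). In SORL1-A528T it was 0.077, -0.026 and 0.047, a difference of 0.0965. TNFAIP3 was thus above the WT mean in 3 of 3 libraries of each of these lines, all of them set against the same 3 WT libraries.

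NFKBIZ was highest in TREM2-R47H, at 0.084, 0.098 and 0.125, against -0.052, 0.032 and 0.007 in WT, a difference of 0.107 (SE 0.0521, limma adjusted p = 0.591). Against TREM2-KO, at 0.031, -0.004 and -0.019, the difference was 0.0999 (limma adjusted p = 0.385), the lowest adjusted p of any member. The 3 TREM2-R47H values did not overlap with those of either line. They are means over 18 regions, among them the one 40811 bp to the right that was called in TREM2-R47H alone. The gene value is therefore not separate from that region. With lists of equal length the difference of NFKBIZ from WT became -0.048 (SE 0.0764, limma adjusted p = 0.893). CYLD, over all of its 10 regions, was at -0.265, 0.004 and -0.135 in SORL1-A528T and at -0.054, 0.038 and -0.147 in WT, which overlap (difference -0.0776, SE 0.0936, limma adjusted p = 0.979). For the members not yet given, and for CYLD in the other lines, differences against WT ranged from -0.0837 for NFKBIA in INPP5D SNP to 0.129 for CYLD in TREM2-R47H.

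**Figure D4:**
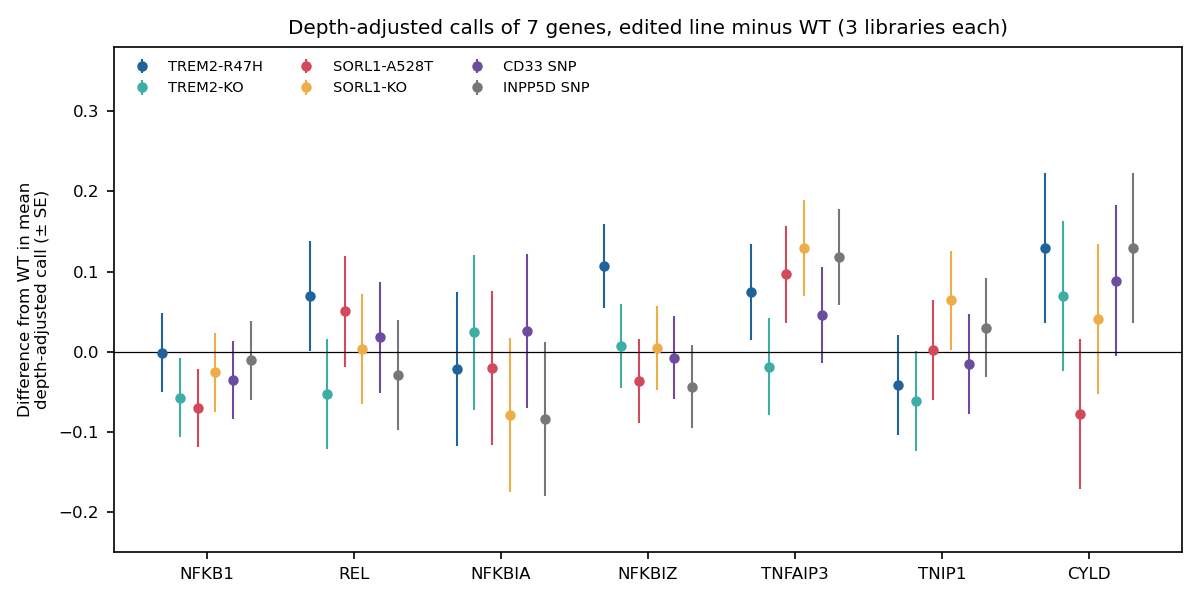
Difference from WT in the mean depth-adjusted call (vertical axis, in calls per region) of the 7 members with at least 5 regions, for 6 edited lines with 3 libraries each; points are limma estimates and bars their SE. The highest TNFAIP3 point is SORL1-KO (0.129) and the highest NFKBIZ point TREM2-R47H (0.107), and none of the points passes the adjusted threshold.

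The 31 constant regions allowed a test of place in the order. On the percentile in file order, limma called 0 of the 31 in any comparison, and 15 of 248 member tests (6.0%) had an unadjusted p under 0.05, against 6.3% over all 25599 regions. Of all regions, 0.316% were called for TREM2-R47H against WT, 0 for TREM2-KO, 0.0703% for SORL1-A528T, 0.00781% each for SORL1-KO, CD33 SNP and INPP5D SNP against WT, 0.539% for TREM2-R47H against TREM2-KO and 0.828% for SORL1-A528T against SORL1-KO. Over the 7 lines, limma's F test called 0.508% of all regions and 0 members, with 4 members at an unadjusted p under 0.05. The share of members with a small p was thus close to that of all regions. The 4 regions that follow were chosen after their values were seen, as those with the lowest p-values in the single comparisons. They are not the same 4 as in the F test. There the region 3729 bp to the right of TNIP1 (limma F, unadjusted p = 0.041) came before the region 53850 bp to the left of TNFAIP3 (0.0575).

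The region inside REL stood at percentiles of 62.6, 66.7 and 70.3 in TREM2-R47H and 81.3, 83.5 and 75.2 in WT. The TREM2-R47H libraries were all below the WT ones, with a difference of -13.4 (SE 3.47, limma adjusted p = 0.125). TREM2-KO, at 77.9, 70.3 and 78.8, had its lowest library level with the highest of TREM2-R47H, and the difference of TREM2-R47H from TREM2-KO was -9.16 (limma adjusted p = 0.306). The mean was 80.9 in SORL1-A528T, 74.8 in SORL1-KO, 77.7 in CD33 SNP and 78.4 in INPP5D SNP, so TREM2-R47H had the lowest mean of the 7 lines.

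A region 14814 bp to the right of NFKBIZ was at 6.3, 15.6 and 22.2 in TREM2-R47H and at 31.9, 58.1 and 55.3 in TREM2-KO. The groups did not overlap, and the difference was -33.7 (SE 8.78, limma adjusted p = 0.107). Without TREM2-KO replicate 1 the difference was -42.0 (limma adjusted p = 0.0377), past the threshold. WT stood at 26.8, 35.0 and 56.5, all above the TREM2-R47H libraries, with a difference of TREM2-R47H from WT of -24.8 (limma adjusted p = 0.310), or -16.2 without WT replicate 3 (limma adjusted p = 0.764).

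The first NFKBIZ start moved the other way in TREM2-R47H. It was at 77.7, 76.6 and 85.1 in TREM2-R47H and at 61.3, 65.0 and 60.9 in TREM2-KO, a difference of 17.4 with no overlap (SE 6.11, limma adjusted p = 0.255). In SORL1-A528T it was at 65.5, 37.1 and 64.0 and in SORL1-KO at 65.1, 80.1 and 78.0, a difference of -18.9 (limma adjusted p = 0.205), with groups that overlap. Without SORL1-A528T replicate 2 it was -9.66 (limma adjusted p = 0.544). WT was at 72.1, 68.7 and 61.2.

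A region 53850 bp to the left of TNFAIP3 had its lowest mean percentile in WT. It was at 43.4, 58.9 and 68.3 in SORL1-A528T, against 43.9, 22.3 and 29.1 in WT, a difference of 25.1 (SE 7.92, limma adjusted p = 0.462). In SORL1-KO it was at 57.7, 57.2 and 51.6, a difference from WT of 23.7 (limma adjusted p = 0.994), and in TREM2-R47H at 50.4, 60.0 and 44.2, a difference from WT of 19.7 (limma adjusted p = 0.390). SORL1-KO and TREM2-R47H did not overlap with WT, while SORL1-A528T did, and all 3 differences share the same WT libraries.

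**Figure D5:**
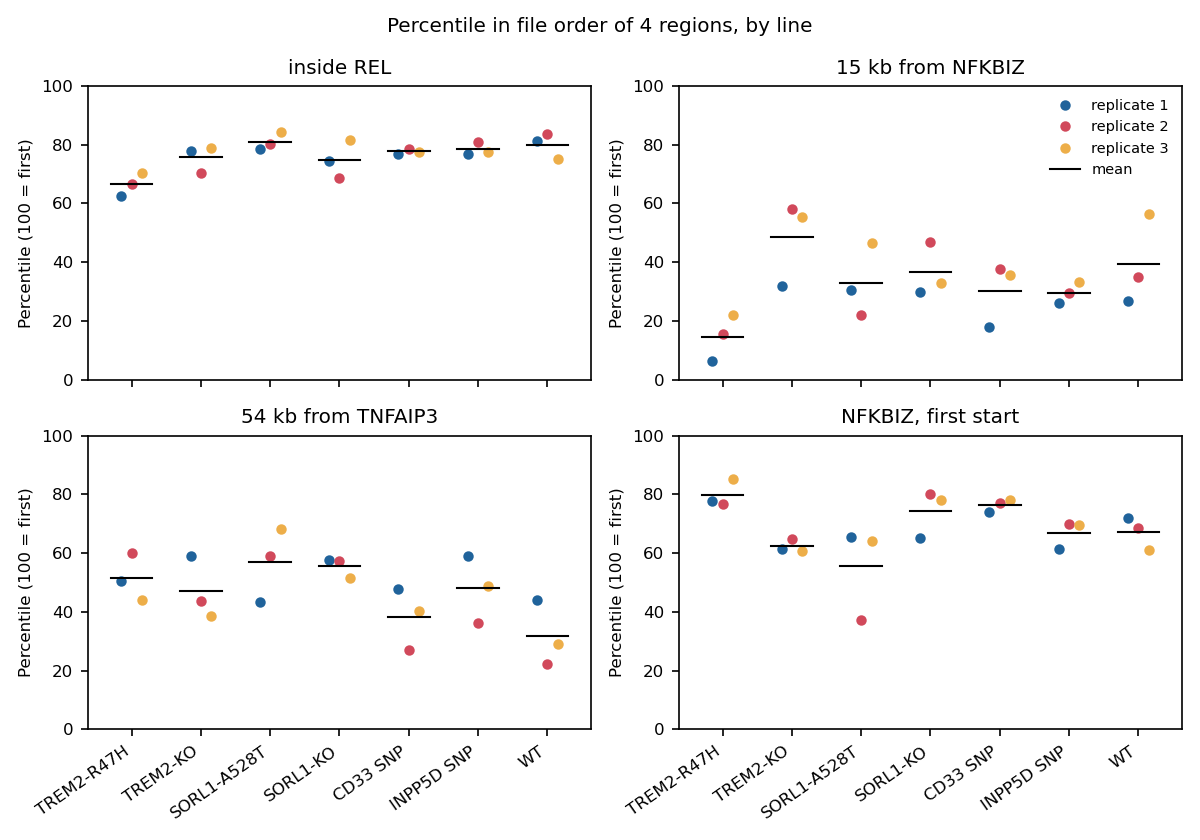
Percentile in file order (100 = first of the regions called in all libraries) of 4 regions near REL, NFKBIZ and TNFAIP3 in each library; colours give the replicate number, black lines the mean of 3 libraries, and WT is at the right of each panel. TREM2-R47H is lowest for the region inside REL and for the region right of NFKBIZ, and highest at the first NFKBIZ start.

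Peak width told little more. On the log2 of the summed peak width, limma called 0 of the 31 regions in the 8 comparisons and 5 of 248 member tests (2.0%) had an unadjusted p under 0.05, against 1.94% over all regions. Of all regions, 0.00391% were called for SORL1-A528T against WT and again against SORL1-KO, and 0 in the rest. The regions that follow were chosen after their values were seen. The lowest p-value was that of a region 46430 bp to the left of NFKB1. It was wider in TREM2-R47H than in TREM2-KO by 0.61 on the log2 scale, with no overlap (limma unadjusted p = 0.02). The region 18018 bp to the left of TNFAIP3 was 1008, 764 and 1275 bp wide in TREM2-R47H and 1818, 1532 and 1919 bp in TREM2-KO. That was a log2 difference of -0.81 with no overlap (limma adjusted p = 1.0). The region 53850 bp to the left of TNFAIP3 was wider in TREM2-R47H than in WT by 0.66 on the log2 scale (limma adjusted p = 1.0).

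The wider NF-kB pathway was read from a list of 62 genes: 35 regulators such as kinases and adaptors, 8 receptors and 19 targets. Gene ends were called in all 21 libraries for 25 of 35 regulators, 2 of 8 receptors and 8 of 19 targets, beside 9 of the 10 members (TNIP1 in 20 libraries) and 44.4% of all protein-coding genes. Of the 40 genes with at least 5 regions, limma called 0 in each of the 8 comparisons. For TREM2-R47H against TREM2-KO, 7 had a higher and 1 a lower depth-adjusted call at an unadjusted p under 0.05, where 9.15% and 4.65% of all genes did, with a list median of 0.038 and a median of all genes of 0.022. Over the 8 comparisons, 17 to 29 of the 40 differences were positive. The lowest p-values were those of IRAK3, an inhibitor of Toll-like receptor signalling, with a difference of -0.242 in TREM2-R47H against WT (SE 0.0545, limma adjusted p = 0.322), and CD83, an activation marker and NF-kB target, with a difference of 0.224 in the same comparison (SE 0.0743, limma adjusted p = 0.479). IRAK4, a listed regulator with 3 regions and so outside this test, had a gene end called in 0 of 3 TREM2-R47H libraries. In every other line, WT included, it was called in 3 of 3. By the whole-region rule for TREM2-R47H against WT, 0.303% of all regions were lost. That rule sets the other lines aside and is not limited to gene ends, so its share covers a broader pattern than that of IRAK4. A share for loss from TREM2-R47H alone is not given here. IRAK3, CD83 and IRAK4 were named after their values were seen.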

How the data were processed

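Per the labels' protocols, Omni-ATAC libraries were sequenced paired-end on a NextSeq 500; cutadapt 1.18, STAR 2.7, HOMER 4.10 and DESeq2 (role not given) are named in the submitters' processing notes. Per the file headers, HOMER called peaks library by library, in histone style, without a control library: size 500, minimum distance 1000, fold 4.00 over the surrounding 10000 bp, local p-value 1e-04. The deposited score is 1 for every peak, so peaks carry no height; the deposited columns used were start and end. Transposase shift and genome build are not given in the sources used here. RefSeq GRCh38.p14 was taken as the build: regions common to all libraries covered 33.6% of promoter windows, against 2.58% and 2.45% after shifts of 10 kb. Peaks on chromosomes Y and M (0.082%) were left out; 78.7% of regions had a gene within 100 kb.

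From these, calls, depth-adjusted calls, percentiles and log2 widths were computed (Python 3.11.15) and tested with limma 3.58.1 (R 4.3.3), one model over all 21 libraries, Benjamini-Hochberg per comparison over all features, after trials on simulated data. Named were all 10 genes, their promoter and gene-end regions in all libraries, and regions all-or-none between lines. The least called region in at least 10 libraries was also named per gene. Others are said to be chosen after seeing values. The members, lists and tests were chosen with earlier results of these data known. Replicate numbers were not taken to pair libraries, since not every same-numbered pair correlated above 0.1 (lowest r -0.065 for calls, -0.122 for percentiles and 0.075 for widths), though such pairs had a mean r of 0.193, 0.4 and 0.276, against -0.094, -0.197 and -0.135 for other pairs. Alternatives were a 50% cover, equal list lengths, nearer regions, other region minimums, a logit scale, leaving out libraries and a replicate block.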

Additional observations from a re-analysis of the deposited data

How the results depend on the processing

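Of 1110 alternative values, 1064 were unchanged in direction, side of the threshold or, for counts, size. All 222 width values were, and each was a count of 0 called members. Many of the gene and percentile values were also counts of called members that were 0 in the main fit. Of the whole-region counts 36 of 72 were unchanged, and of the recurrence shares 3 of 6. An estimate that kept its direction and side counted as unchanged whatever its size. With the replicate number as a block, 1 member region was called in TREM2-R47H against WT (inside REL, limma adjusted p = 0.0477) and 1 in TREM2-R47H against TREM2-KO (14814 bp right of NFKBIZ, limma adjusted p = 0.0138), where the fit without the block called 0. The block also moved the counts over all regions in the percentile test. They went to 777 from 81 for TREM2-R47H against WT and to 922 from 138 for TREM2-R47H against TREM2-KO. For SORL1-A528T they went to 675 from 212 against SORL1-KO and to 47 from 18 against WT. Over all genes the counts went to 59 and 8 from 0 for the 2 comparisons between edited lines. The labels do not say whether the replicate numbers pair libraries. Tags move with these numbers, fragment length sets only replicate 2 apart, and the cause was not tested. Leaving out each library in turn gave 0 to 1 called member regions for TREM2-R47H against TREM2-KO, the 1 without TREM2-KO replicate 1. NFKBIZ in TREM2-R47H against WT turned to -0.048 with equal list lengths.

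Whole-region counts and recurrence shares were the least stable. The regions counted near NFKBIZ for TREM2-R47H, near CYLD and near TNFAIP3 lay 40811, 40081 and 85143 bp from their genes. A 10 kb limit leaves such regions out, so the falls within 10 kb were fixed by distance. Those falls say nothing about stability. For TREM2-R47H against WT and against TREM2-KO the count of 1 became 0 with equal list lengths and 0 within 10 kb, and 1 to 4 when a library was left out, the 4 without WT replicate 2 and without TREM2-R47H replicate 2. For SORL1-A528T against WT the count of 1 became 0 with a 50% cover and 0 within 10 kb, and 1 to 8 without one library, the 8 without WT replicate 2. Against SORL1-KO the 2 became 1 within 10 kb and 2 to 9 without one library, the 9 without SORL1-KO replicate 2. For SORL1-KO against WT the 1 became 2 with equal lists, 0 within 10 kb and 1 to 2 without one library, the 2 without SORL1-KO or WT replicate 2. Equal lists gave 2 for TREM2-KO, 1 for CD33 SNP and 1 for INPP5D SNP against WT, where the main count was 0, and leaving out a library gave 0 to 3, 0 to 2 and 0 to 2, each highest without WT replicate 2 (for CD33 SNP also without WT replicate 1). The share of member regions in every library, 24.6%, became 6.3% with a 50% cover (5.6% of all regions), 38.6% with equal lists (27.1%) and 26.1% to 45.2% without one replicate number. Depth also limits these results: a region not called in a replicate 2 library may be open below what 12.8 to 17.5 M tags show.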

Other observations

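Depth-adjusted calls over the regions of a gene were compared across the 21 libraries for the 3 members with most regions, as a description. TNFAIP3 varied most like APLP2 (Pearson r = 0.80), PARD6B (0.79) and LYST (0.78), the closest of 8203 genes on other chromosomes. NFKB1 varied most like TRIM44 (0.74), GALNT15 (0.73) and ABCA13 (0.69), of 8242 genes, and NFKBIZ most like BCAR1 (0.75), DAB2IP (0.72) and ADRA1B (0.71), of 8123 genes. The points share libraries, depth and replicate number, and the genes were picked as the highest.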
